A study of Gallus gallus with 88 samples.

Results

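The chaperone genes of chicken hind muscle (M. gastrocnemius) were examined as 58 of the 20706 probe sets measured on Affymetrix chicken gene arrays. They were the probe sets whose only gene symbol in the array annotation begins with HSPA, HSP90, HSPD, HSPE, HSPH or DNAJ, or with CCT and a digit, and they stand for 52 genes. Small heat shock proteins (HSPB) were left out. By role, 7 genes were cytosolic HSP70 or HSP110 proteins, 1 was a cytosolic HSP90, 6 were cytosolic type A or B J proteins, 12 belonged to the endoplasmic reticulum, 7 to mitochondria, 5 to the chaperonin TRiC, and 14 were other type C J proteins. HSP90AA1, HSPE1, DNAJA4, DNAJB1, DNAJA2, CCT3 and CCT7 were not among these probe sets and were not analysed here.

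HSP70 proteins bind unfolded stretches of other proteins and release them in a cycle driven by ATP. J proteins (DNAJ) bring clients to HSP70 and speed up its ATP hydrolysis, while HSP110 proteins exchange its nucleotide. HSP90 takes over partly folded clients, among them kinases and, in developing muscle, myosin, and TRiC, a double ring built of CCT subunits, folds actin and tubulin. Heat induces many of these genes through heat shock factors, and much of their expression in unstressed tissue follows the amount of protein that a cell makes.

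Eggs of a commercial broiler line were incubated at 37.8 °C apart from a treatment interval at 38.8 °C (H) or 36.8 °C (L), and control eggs (C) stayed at 37.8 °C. Embryos H10, C10 and L10 were sampled at ED10 after treatment during ED7–10, and H13, C13 and L13 at ED13 after treatment during ED10–13, with 8 animals per group. Chickens at D35 came from H10, L10, H13 and L13 eggs (8 each), and 2 C10 and 6 C13 chickens formed 1 control group. By the study's methods the H groups also had a higher relative humidity, so temperature and humidity cannot be told apart.

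The 88 arrays held 1 animal each and their values are on a log2 scale, so that 1 unit is a doubling. Embryo arrays had medians of 7.90 to 8.29 and D35 arrays of 6.64 to 6.98, and no gene's level was compared between the stages. In sample order, the animal numbers of embryos rise through a block with all H embryos and then a block with all L embryos. Each block holds 4 of 8 controls of each day. At D35 the numbers rise through all H chickens, start again and rise through all L chickens, with 4 of 8 controls in either part. The number ranges of these parts overlap at D35. The parts, inferred from this order and named in no label, are called runs. The methods mention a repeat batch of each group, and whether the runs are these batches is not stated. A background level (95th percentile of control probe sets for background) stood at 9.71 for embryos and 9.49 for D35. Above it were 27 and 19 of the 58 member probe sets. The median of these control probe sets was 5.61 for embryos and 5.33 for D35. Of the 20706 probe sets measured, 4332 lay above the background level in embryos and 2236 at D35. Most probe sets thus lay below it, as did every array median. Skeletal muscle markers (7 of 12 listed genes measured, 6 above this background level) averaged 10.94 to 11.70 in the embryo groups and 11.70 to 11.74 at D35. Skin and feather markers varied between 6.06 and 10.98 among the embryo arrays. In bulk tissue, fewer cells of a type and less RNA per cell cannot be told apart.

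The clearest differences among the chaperones lay between the 2 embryonic days. HSPA2 rose from ED10 to ED13 while HSPH1, HSP90AB1 and HSPA8 fell, in control, high-temperature and low-temperature embryos alike. The 3 contrasts (C13 against C10, H13 against H10 and L13 against L10) share no arrays. In C13 against C10, 4 probe sets were higher and 13 lower at an adjusted p under 0.05 (6.90% and 22.4% of the 58), where 11.8% of all probe sets were higher and 16.4% lower. In H13 against H10, 5 were higher and 10 lower (8.62% and 17.2%), against 14.3% and 12.4% of all probe sets. In L13 against L10, 4 were higher (3 genes) and 8 lower (6.90% and 13.8%), against 9.76% and 15.2%. In C and H embryos the chaperones thus had a smaller share of higher calls and a larger share of lower calls than all probe sets. In L embryos both shares were smaller. Whether the shares differ beyond chance was not tested, and they rest on few probe sets. The members also varied less within groups (median SD 0.16 against 0.22 over all probe sets), so that equal changes pass the threshold more easily. Quantile normalization raised the lower calls to 18 in C, 17 in H and 14 in L embryos. The shares of all probe sets under it are not given here, so the comparison of shares holds for the values as deposited. Called in all 3 contrasts were 3 probe sets higher and 4 lower (5.17% and 6.90%), where 6.67% and 7.82% of all probe sets were.

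HSPA2, a cytosolic HSP70 known in mammals for its part in sperm formation, had the largest change of the 58. C10 embryos lay between 9.32 and 9.86 (median 9.66) and C13 embryos between 10.19 and 11.46 (median 10.91). L10 embryos lay between 9.08 and 9.73 (median 9.53) and L13 embryos between 10.11 and 11.41 (median 10.64). Neither pair of groups overlapped. H10 embryos lay between 9.35 and 9.95 (median 9.73) and H13 embryos between 9.93 and 11.42 (median 10.47), so that these touched. The log2 fold change was 1.23 ± 0.17 (SE) in C13 against C10 (2.34-fold, adjusted p = 1.62e-07), 0.83 ± 0.17 in H13 against H10 (1.78-fold, adjusted p = 0.000145) and 1.17 ± 0.17 in L13 against L10 (2.25-fold, adjusted p = 5.15e-07). The smaller value in H embryos did not differ from that in controls past the threshold (difference −0.39, 95% interval −0.88 to 0.09, adjusted p = 0.784).

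HSPH1, an HSP110 protein that exchanges nucleotide on HSP70 and is heat-inducible in mammals, went the other way. It lay between 9.03 and 9.70 in C10 (median 9.30) and between 8.36 and 8.78 in C13. H10 embryos lay between 8.86 and 9.60 (median 9.33) and H13 embryos between 8.34 and 8.82 (median 8.61). L10 embryos lay between 8.89 and 9.48 (median 9.29) and L13 embryos between 8.45 and 8.86 (median 8.62). The ED10 and ED13 groups did not overlap in any of the pairs. The fold changes were −0.73 ± 0.09 (SE) in C13 against C10 (adjusted p = 3.73e-08), −0.70 in H13 against H10 (adjusted p = 1.17e-07) and −0.62 in L13 against L10 (adjusted p = 1.23e-06), and its mean stayed below the background level.

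HSP90AB1, the constitutive cytosolic HSP90 that keeps signalling kinases and steroid receptors in a binding state, lay between 11.55 and 11.94 in C10 (median 11.65) and between 11.08 and 11.32 in C13 (median 11.29). H10 embryos lay between 11.42 and 11.64 (median 11.54) and H13 embryos between 10.92 and 11.34 (median 11.02). L10 embryos lay between 11.67 and 11.85 (median 11.76) and L13 embryos between 11.30 and 11.62 (median 11.44). Every ED13 group lay wholly below its ED10 group. The log2 fold change was −0.46 ± 0.06 (SE) in C13 against C10 (adjusted p = 3.22e-08), −0.46 in H13 against H10 (adjusted p = 5.01e-08) and −0.31 in L13 against L10 (adjusted p = 7.34e-05).

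HSPA8, the constitutive HSP70 of the cytosol, had the smallest spread within groups of all members (SD 0.07), so small differences were measurable. C10 embryos lay between 12.49 and 12.79 (median 12.64) and C13 embryos between 12.30 and 12.41 (median 12.34). Both control groups were apart. H13 embryos lay between 12.22 and 12.48 and L13 embryos between 12.40 and 12.47, again below the lowest H10 (12.57) and L10 (12.51) embryos. It fell by 0.29, 0.28 and 0.21 on the log2 scale in C, H and L embryos (adjusted p = 1.81e-07, 3.09e-07 and 4.12e-05). HSPA4L, another HSP110 protein, did not pass the threshold in any of the 3 contrasts, with values from −0.10 (95% interval −0.29 to 0.08, L13 against L10) to −0.03 (−0.22 to 0.16, C13 against C10). HSPA14, which works with a J protein at the ribosome in human cells, was called in H13 against H10 (−0.34, adjusted p = 0.00907), where the groups did not overlap. Its mean lay below the background level.

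**Figure D1:**
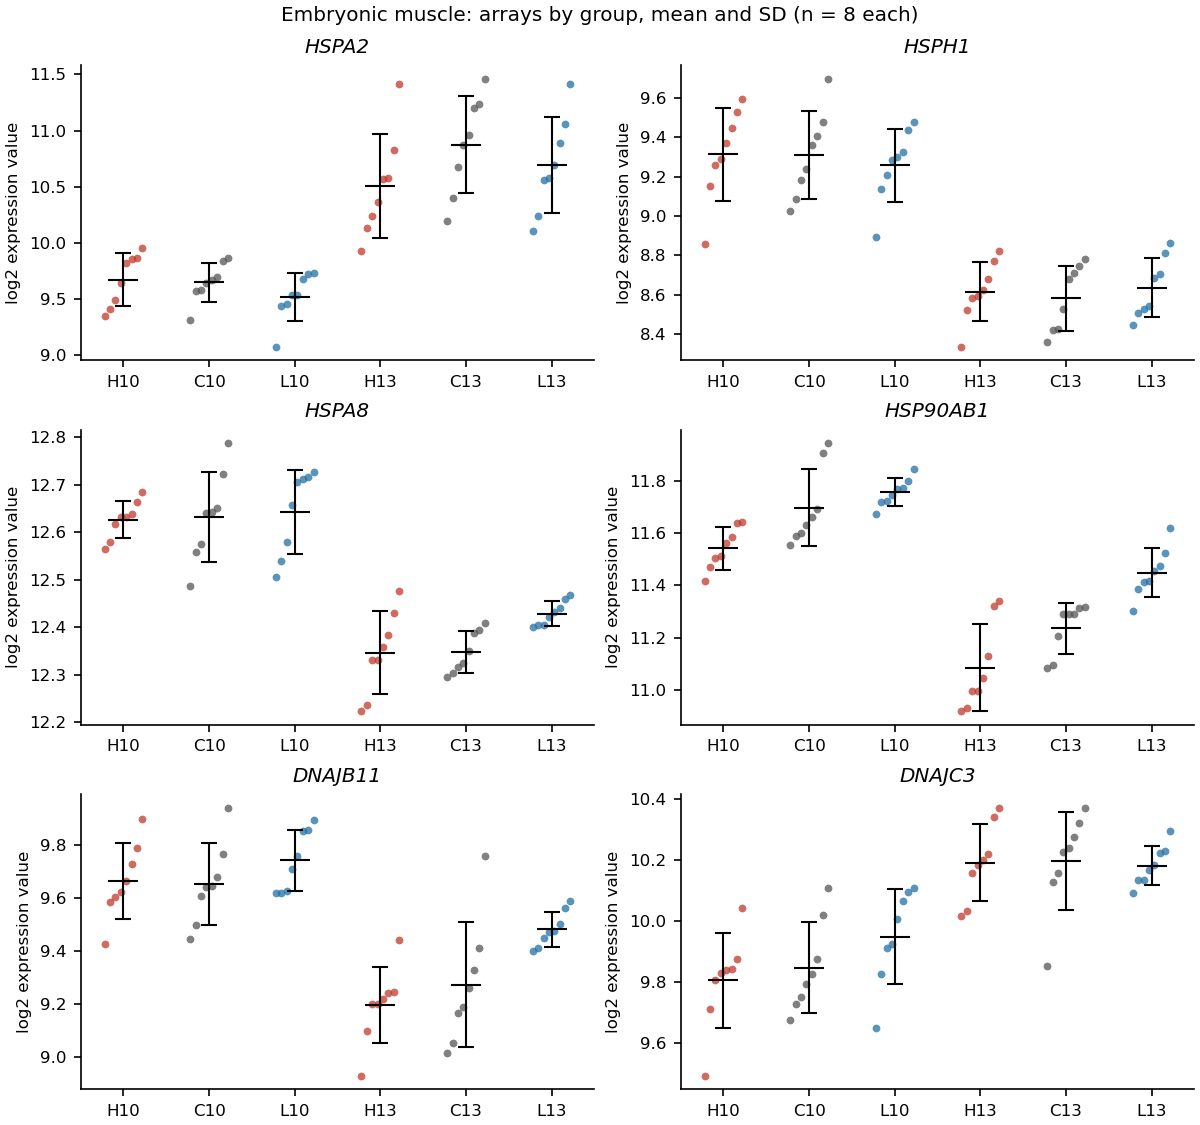
Log2 expression values of 6 chaperone genes (y axes) in each embryo, by group (x axes), with 8 arrays per group sorted by value and bars for the mean ± SD. The ED13 groups of HSPA2 and DNAJC3 lie higher, and those of HSPH1, HSPA8, HSP90AB1 and DNAJB11 lower, than the ED10 groups, with HSP90AB1 means at ED13 running from 11.09 in H13 to 11.45 in L13.

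The TRiC chaperonin had most of its genes called lower at ED13 in 2 of the 3 contrasts. Of the 5 genes measured, each by its brighter probe set, 4 were called lower in C13 against C10 and in H13 against H10, and 0 in L13 against L10. Of all probe sets, 16.4%, 12.4% and 15.2% were called lower in C, H and L embryos. In L13 against L10, 4 of the 5 TRiC genes lay below 0 without being called. CCT4 lay between 11.23 and 11.57 in C10 (median 11.27) and between 10.87 and 11.11 in C13 (median 11.02), with no overlap, and fell by 0.32 on the log2 scale (adjusted p = 6.37e-06). H10 embryos lay between 11.09 and 11.48 and H13 embryos between 10.72 and 11.04, again with no overlap (−0.43, adjusted p = 1.89e-08). L10 embryos lay between 11.09 and 11.33 and L13 embryos between 11.05 and 11.17, so that these groups overlapped (−0.13, 95% interval −0.24 to −0.02, adjusted p = 0.0721).

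CCT5 fell by 0.20 in C embryos and by 0.41 in H embryos (adjusted p = 0.00683 and 4.04e-07), against −0.11 (−0.23 to 0.01) in L embryos. CCT6A fell by 0.24 and 0.32 (adjusted p = 0.00223 and 7.94e-05), against −0.06 (−0.18 to 0.07) in L embryos. CCT2 fell by 0.24 in both C and H embryos (adjusted p = 0.00144 and 0.00126), against −0.13 (−0.24 to −0.01) in L embryos. CCT8 had −0.18 (−0.40 to 0.05), −0.22 (−0.45 to −0.0001) and 0.01 (−0.21 to 0.23) and was not called. The difference of the changes in L and C embryos was not past the threshold for any member, where 0% of all probe sets were called, and for CCT4 it was 0.19 (0.04 to 0.34, adjusted p = 0.99993). The same held for H against C embryos, where 0.00966% of all probe sets were called and CCT5 had the smallest p of the members (−0.21, −0.38 to −0.04, adjusted p = 0.505). Within the controls of run 1 alone CCT2, CCT5 and CCT6A remained past the threshold, while in run 2 they had −0.19, −0.11 and −0.15 and did not pass. With C10 and C13 alone in the fit CCT5 did not pass either (adjusted p = 0.0530). A dimmer probe set of CCT4 (15494260, mean 7.53) went the other way in C13 against C10, with 0.06 (−0.28 to 0.39), and was not called.

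Among J proteins of the cytosol, DNAJB5 and DNAJB4 were higher at ED13. DNAJB5, a type B J protein, had 2 probe sets, both below the background level. By the probe set with the higher mean, C10 embryos lay between 8.84 and 9.37 (median 9.08) and C13 embryos between 9.09 and 10.36 (median 9.65). L10 embryos lay between 8.54 and 9.37 and L13 embryos between 9.56 and 10.35, without overlap. It rose by 0.59 ± 0.13 (SE) in C embryos (adjusted p = 0.000575), by 0.57 in H embryos (adjusted p = 0.000949) and by 0.71 in L embryos (adjusted p = 5.84e-05). The other probe set had 0.09 (−0.03 to 0.21), 0.01 (−0.11 to 0.13) and 0.16 (0.04 to 0.27, adjusted p = 0.0496), so the size of the change depended on the probe set, and this last call was lost when any of many single arrays was left out. DNAJB4 rose by 0.38 and 0.39 in C and H embryos (adjusted p = 0.00914 and 0.00726), against 0.14 (−0.09 to 0.37) in L embryos, and had 0.28 (adjusted p = 0.273) in the controls of run 1. Its mean also lay below the background level. DNAJA1, the main cytosolic type A partner of HSP70, was at −0.002 (−0.24 to 0.23), 0.03 (−0.21 to 0.27) and 0.06 (−0.18 to 0.29).

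The chaperones of the endoplasmic reticulum moved in both directions. DNAJC3, an inhibitor of the stress kinase PERK and a partner of BiP, rose by 0.35, 0.38 and 0.23 in C, H and L embryos (adjusted p = 0.000132, 3.49e-05 and 0.0112), with 0.27 (adjusted p = 0.0676) in the controls of run 1. C10 embryos lay between 9.68 and 10.11 (median 9.81) and C13 embryos between 9.85 and 10.37 (median 10.23), with some overlap. DNAJB11, another luminal partner of BiP, fell by 0.38, 0.47 and 0.26 (adjusted p = 0.000123, 5.48e-06 and 0.00909) and lay below the background level. DNAJC10, a disulfide reductase of this compartment, was called lower in L embryos (−0.25, adjusted p = 0.0258), a call lost without L10 array 51, 54 or 56 or L13 array 77 or 79 (adjusted p up to 0.0733). HSPA5, which encodes BiP, the HSP70 of this compartment, fell by 0.18 in C embryos and 0.16 in H embryos (adjusted p = 0.00699 and 0.0177) and was at 0.01 (−0.09 to 0.12) in L embryos. Its difference between L and C embryos was 0.19 (0.04 to 0.34, adjusted p = 0.99993). The call in H embryos was lost without H10 array 12 (−0.14, adjusted p = 0.0509). That in C embryos was lost with array weights (−0.11, adjusted p = 0.0647), with C10 and C13 alone in the fit (adjusted p = 0.0652) and in the controls of run 2 (−0.12, adjusted p = 0.224). DNAJB9 was called in H embryos (0.37, adjusted p = 0.00698) and had 0.24 (0.03 to 0.46) in C embryos and 0.09 (−0.12 to 0.31) in L embryos. The means of DNAJB9 and DNAJC10 lay below the background level. HSP90B1, the HSP90 of this compartment, had 0.03 (−0.08 to 0.14), 0.11 (0.00 to 0.22) and −0.08 (−0.19 to 0.03).

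Of the mitochondrial genes, DNAJC15, a J protein of the inner membrane, fell by 0.27 in C and 0.31 in L embryos (adjusted p = 0.00694 and 0.00210). HSPA9, the mitochondrial HSP70, fell by 0.15 in C embryos (adjusted p = 0.0293), a call lost without C10 array 17, 18 or 70 or C13 array 40 (adjusted p up to 0.0967), with C10 and C13 alone in the fit (adjusted p = 0.0841) and in the controls of either run. HSPD1, the subunit of the mitochondrial chaperonin, was at 0.02 (−0.13 to 0.17), 0.03 (−0.12 to 0.18) and −0.05 (−0.20 to 0.10). Of the other type C J proteins, DNAJC6 (auxilin, which uncoats clathrin vesicles) fell by 0.44 and 0.68 in C and L embryos (adjusted p = 0.00530 and 3.51e-05), and DNAJC5, a J protein of secretory vesicles, by 0.19 and 0.23 (adjusted p = 0.0121 and 0.00195). DNAJC6 had a mean below the background level. In the 4 against 4 controls of runs 1 and 2, DNAJC15 had −0.24 and −0.29 (adjusted p = 0.138 and 0.0554), DNAJC6 −0.46 and −0.43 (adjusted p = 0.0787 and 0.0909) and DNAJC5 −0.18 and −0.19 (adjusted p = 0.144 and 0.0967). None of these passed the threshold, and with C10 and C13 alone in the fit DNAJC5 did not pass either (adjusted p = 0.0925).

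**Figure D2:**
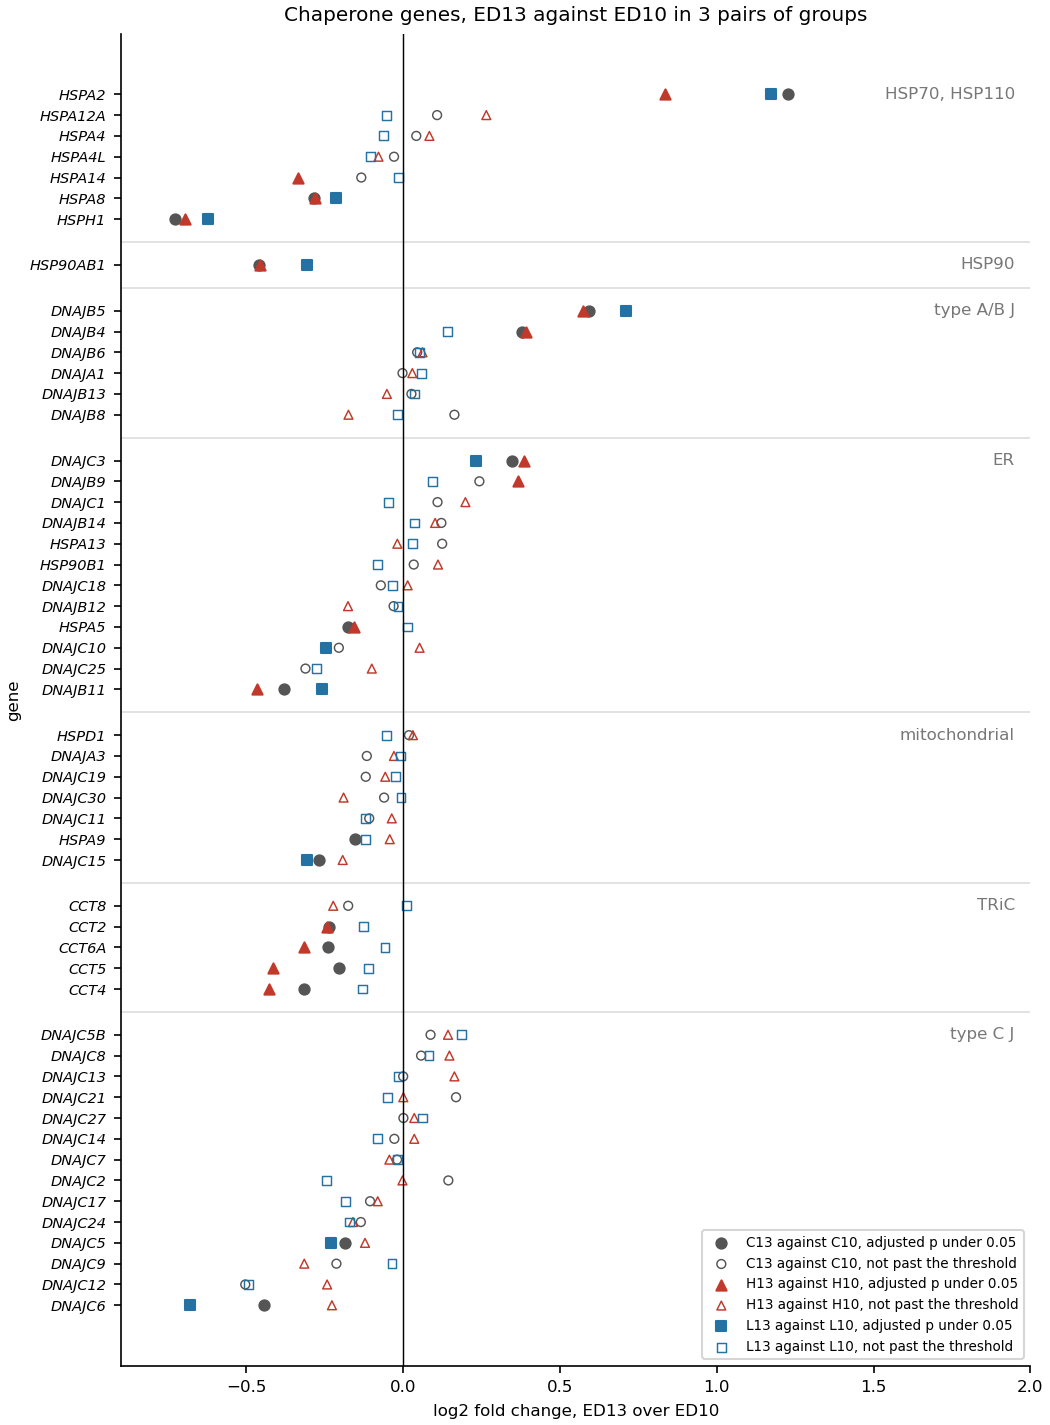
Log2 fold change from ED10 to ED13 (x axis) of the 52 chaperone genes (y axis), grouped by role, in control (circles), high-temperature (triangles) and low-temperature embryos (squares), with filled symbols past an adjusted p of 0.05. HSPA2 stands apart on the right with 1.23, 0.83 and 1.17 and HSPH1 on the left with −0.73, −0.70 and −0.62. Filled TRiC symbols occur for C and H embryos only, though the changes in L and C embryos differed past the threshold for no gene.

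The partners of these chaperones were called in both directions as well, beside 11.8% of all probe sets higher and 16.4% lower in C, 14.3% and 12.4% in H and 9.76% and 15.2% in L embryos. The lists are short and their counts are a description of the genes named. Above the background level in embryos were 9 of 14 HSP90 cochaperones, 4 of 9 HSP70 regulators and 1 of 4 heat shock factors. The same held for 8 of 14 genes of the endoplasmic reticulum list, 2 of 9 TRiC partners and 1 of 5 mitochondrial genes. Of 14 measured HSP90 cochaperones and related genes, 1 was higher and 5 lower in C13 against C10, 1 and 4 in H13 against H10, and 2 and 3 in L13 against L10. AHSA1, which activates the ATPase of HSP90, fell by 0.32, 0.31 and 0.26 (adjusted p = 4.47e-05, 5.77e-05 and 0.000759), and FKBP4 and PTGES3 were also called lower in each contrast. UNC45B, the myosin chaperone of striated muscle, rose by 0.52, 0.54 and 0.64 (adjusted p = 0.00139, 0.000986 and 0.000136). The list's median was 0.01, −0.04 and −0.07, beside −0.02, 0.00 and −0.03 for all probe sets.

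Of 9 nucleotide exchange factors and regulators of HSP70, 2 were higher in each contrast, and 1, 2 and 1 were lower (C, H and L embryos). BAG3, which with HSP70 clears damaged filament proteins in muscle, rose by 0.33, 0.31 and 0.29 (adjusted p = 3.08e-05, 0.000109 and 0.000235), and BAG5 was also called higher each time. The medians of the list were −0.06, −0.07 and −0.05. Of 4 heat shock factors, 0 were higher and 2, 2 and 1 were lower. HSF2, a factor active in development, fell by 0.36, 0.20 and 0.30 (adjusted p = 1.70e-06, 0.00470 and 4.36e-05), and the medians were −0.20, −0.06 and −0.13. Of 14 genes of folding in the endoplasmic reticulum and its stress response, 3, 3 and 1 were higher and 4, 2 and 2 lower, with medians of −0.08, −0.02 and −0.04. PDIA6 and SDF2L1 were called lower and ATF4, a transcription factor of that response, higher in each contrast. Of 9 partners of TRiC, 1 was higher in each contrast and 0, 2 and 0 were lower, with medians of 0.07, 0.05 and 0.14, and PDCL3 rose by 0.44, 0.51 and 0.42. Of 5 mitochondrial proteases and import motor genes, 2, 2 and 1 were higher and 0 lower, with medians of 0.16, 0.17 and −0.02.

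Cell type markers moved between the same days. The mean of the 7 skeletal muscle markers lay between 10.52 and 11.13 in C10 and between 11.33 and 11.89 in C13, and 5, 4 and 5 of 7 were called higher in C, H and L embryos. The mean of 7 cartilage markers (1 above the background level) went from 8.79 (7.49 to 9.80) to 7.45 (6.73 to 8.85), and 6, 3 and 6 of 7 were called lower. The 4 blood markers averaged 11.84 in C10 and 10.98 in C13, of which HBE alone was called lower (−2.89) and the median difference was −0.20. The 3 endothelial markers averaged 9.91 and 10.22, with 2 called higher. No marker was listed at 0. The part of these markers in the chaperone differences was not tested.

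Incubation temperature itself had no chaperone past the threshold in embryos. In H10 against C10, L10 against C10, H13 against C13 and L13 against C13, limma called 0 of the 58 probe sets, where 0.13%, 0%, 0.00966% and 0.0193% of all probe sets were called. At an unadjusted p under 0.05 there were 6, 4, 7 and 12 members (10.3%, 6.90%, 12.1% and 20.7%), against 9.30%, 4.30%, 10.4% and 7.40% of all probe sets. The median difference of the members was −0.01, 0.05, −0.003 and 0.06, beside −0.03, 0.03, 0.01 and 0.01 for all probe sets.

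HSP90AB1 had the smallest p of the members in 3 of the 4 contrasts. Its mean was 11.54 ± 0.08 (SD, n = 8) in H10, 11.70 ± 0.15 in C10 and 11.76 ± 0.05 in L10. At ED13 it was 11.09 ± 0.17 in H13, 11.24 ± 0.10 in C13 and 11.45 ± 0.09 in L13. The means thus ran from high to low temperature on both days, though each treated group overlapped its controls. The differences from the controls were −0.16 (95% interval −0.27 to −0.04, adjusted p = 0.354) in H10, 0.06 in L10, −0.15 (−0.27 to −0.03, adjusted p = 0.368) in H13 and 0.21 (0.09 to 0.33, adjusted p = 0.267) in L13. Against the controls of the same run alone they were −0.11, 0.01, −0.16 and 0.23, all short of the threshold.

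In L13 against C13 the next members by p were CCT6A (0.22, 0.10 to 0.35, adjusted p = 0.267), DNAJC19, a J protein of mitochondrial import (0.29, 0.08 to 0.50), and DNAJB11 (0.21, 0.05 to 0.36). All 5 TRiC genes, by their brighter probe sets, had values above 0 in L13 (0.11 to 0.22) and below 0 in H13 (−0.14 to −0.04). Against controls of the same run CCT6A had 0.12 in L13 and 0.05 in H13, and the dimmer probe set of CCT4 had −0.24 in L13. In H13 against C13 the members by p after HSP90AB1 were CCT5, CCT4 and HSPA14, at −0.14, −0.12 and −0.23. HSPA2 had the largest negative difference there (−0.37, −0.71 to −0.03, adjusted p = 0.441), with H13 and C13 overlapping. In H10 against C10 they were DNAJC10, DNAJC11 and HSPA9, at −0.19, −0.12 and −0.11. In L10 against C10 the smallest p belonged to DNAJC6 (0.33, 0.08 to 0.58, adjusted p = 0.951), DNAJC5B (−0.19), DNAJC17 (0.26) and DNAJC2 (0.30). For HSPA8 the intervals reached from −0.09 to 0.16 over the 4 contrasts and for HSPH1 from −0.24 to 0.24. For HSPA2, whose spread was wider, they reached from −0.71 to 0.37. Skin and feather markers averaged 8.45 in H13 and 9.61 in C13, and with their mean as a covariate 0 members were called in the 4 contrasts. Since 0 were called without it as well, this count cannot show what part skin played.

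**Figure D3:**
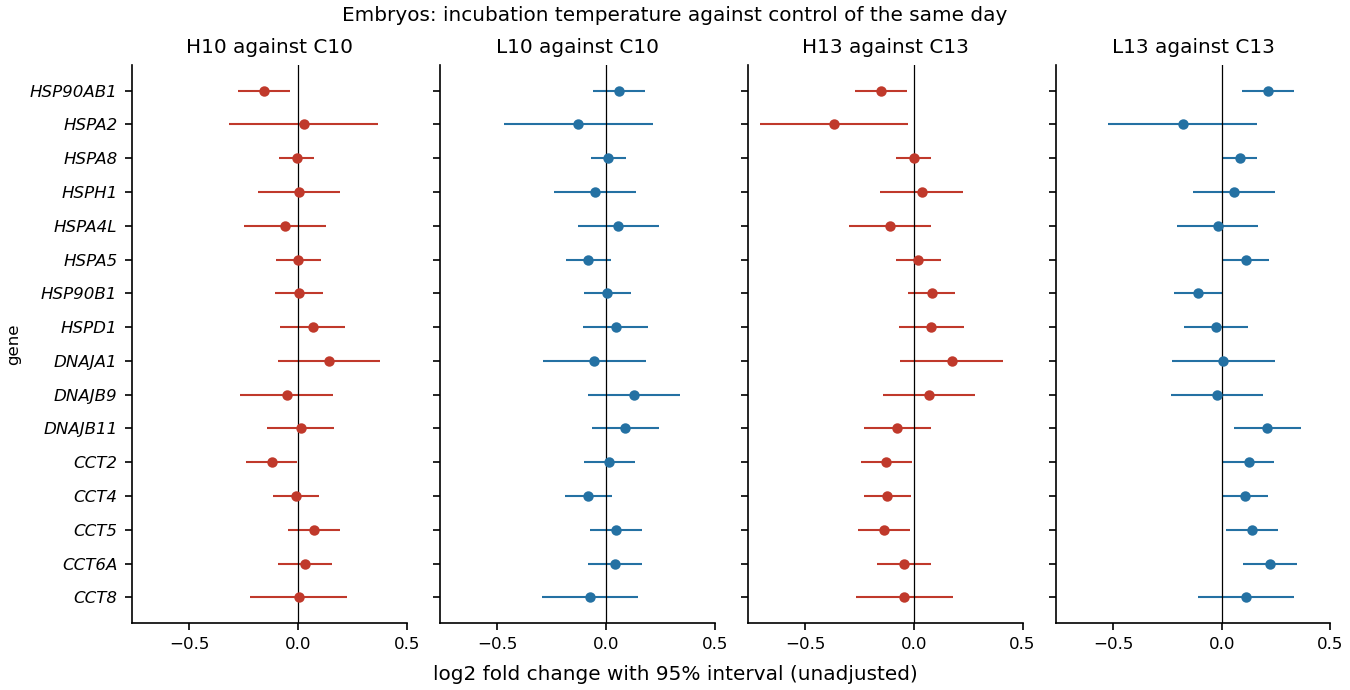
Log2 fold change against the controls of the same day (x axes) of 16 chaperone genes (y axis), 1 panel per treatment, with bars for the unadjusted 95% interval (8 arrays per group). HSP90AB1 lies at −0.16 in H10 and −0.15 in H13 and at 0.21 in L13, and no gene passed an adjusted p of 0.05.

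The high- and low-temperature embryos were also set against each other directly, a contrast chosen after the data were seen. Of all probe sets, 662 were called lower and 132 higher in H10 against L10, with a median of −0.05 (members −0.06). Here 5 members were called and all were lower (8.62% of the 58, where 3.83% of all probe sets were called). They were DNAJC6 (−0.53, adjusted p = 0.0111), DNAJC17 (−0.38, adjusted p = 0.0440), DNAJC10 (−0.33, adjusted p = 0.0209), HSP90AB1 (−0.21, adjusted p = 0.0300) and DNAJC11 (−0.20, adjusted p = 0.0219), and the groups did not overlap for HSP90AB1. The means of DNAJC6, DNAJC17 and DNAJC10 lay below the background level. After median centring HSP90AB1 had −0.15 (adjusted p = 0.211). Leaving out single arrays moved the count between 2 and 12, with 12 without L10 array 59, 2 without H10 array 16 or L10 array 54, 55 or 56, and 3 without H10 array 4 or 13 or L10 array 57.

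In H13 against L13, 8 were called (13.8%, where 2.9% of all probe sets were), 7 lower and 1 higher. Of all probe sets, 385 were called lower and 215 higher there. Whether the shares differ beyond chance was not tested, and the smaller spread of the members within groups makes them easier to call. HSP90AB1 was lower in H13 by 0.36 ± 0.06 (SE, adjusted p = 0.000203). HSPA14 (−0.45), DNAJB11 (−0.29), CCT5 (−0.28), CCT6A (−0.27), CCT2 (−0.25) and CCT4 (−0.23) were lower as well, with adjusted p between 0.00471 and 0.0297, and HSP90B1 was higher (0.19, adjusted p = 0.0398). The means of HSPA14 and DNAJB11 lay below the background level. H13 and L13 did not overlap for HSPA14, CCT4, CCT5 and CCT6A. These are among the members already called, and the share of all probe sets without overlap was not computed. The calls of DNAJB11 and HSP90B1 were each lost when one of several arrays was left out (adjusted p up to 0.0863 and 0.0895). That of DNAJB11 was also lost with the skin and feather marker mean as a covariate (−0.25, adjusted p = 0.0861). These markers averaged 8.45 in H13 and 9.56 in L13. All H embryos belong to run 1 and all L embryos to run 2, so temperature and run cannot be told apart in this contrast except through the controls of each run. With each group set against the controls of its own run, the difference of the differences was not past the threshold for any member. For HSP90AB1 it was −0.39 at ED13 (adjusted p = 0.175) and −0.11 at ED10 (adjusted p = 0.587), and for CCT5 and CCT6A at ED13 it was −0.12 and −0.07.

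At D35 no chaperone differed from the controls past the threshold. The 6 contrasts (H10, L10, H13 and L13 against the controls, H10 against H13 and L10 against L13) called 0 of the 58 each, where 0%, 0%, 0.00483%, 0.0145%, 0.00483% and 0% of all probe sets were called. At an unadjusted p under 0.05 there were 0, 2, 0, 7, 3 and 6 members (0% to 12.1%), against 2.83%, 6.29%, 3.91%, 12.7%, 3.77% and 8.02% of all probe sets. The spread within groups was wider than in embryos, with a median SD of 0.26 over the members (0.30 over all probe sets) against 0.16 (0.22) in embryos.

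HSP90AB1 lay between 9.06 and 10.07 in the controls (median 9.82), between 9.44 and 10.23 in H10 and between 9.30 and 10.10 in H13. L10 chickens lay between 8.67 and 10.12 (median 9.55) and L13 chickens between 8.65 and 9.89 (median 9.58), and all groups overlapped. The differences from the controls were −0.27 (95% interval −0.65 to 0.10) in L10, −0.30 (−0.67 to 0.08) in L13, 0.12 (−0.25 to 0.50) in H10 and −0.02 (−0.40 to 0.36) in H13. The lowest chickens of both L groups lay below those of the other groups. All L chickens fell in run 2 and all H chickens in run 1, with 4 controls in each. Temperature and run therefore cannot be told apart here except through these controls.

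HSPA2 lay between 11.34 and 11.76 in the controls, and its differences ran from −0.08 (L10) to 0.07 (H13), with intervals within −0.36 to 0.35. HSPA8 lay between 10.36 and 11.87 in the controls, and its differences ran from −0.02 (H13) to 0.10 (L13). CCT6A had the smallest p of the members in L10 (−0.23, −0.41 to −0.05, adjusted p = 0.762), with L10 chickens between 9.92 and 10.43 and controls between 10.24 and 10.79. DNAJC8 (−0.21), DNAJC6 (−0.34) and DNAJC19 (−0.28) followed there. HSPH1 and HSPD1 had 0.32 (−0.04 to 0.68) and 0.26 (−0.01 to 0.53) in L13. In L13 the smallest p belonged to a probe set of DNAJB14 (−1.44, −2.55 to −0.33, adjusted p = 0.264), listed at 0 in some arrays and far below the background level, and to DNAJA3 (0.17), DNAJB6 (0.20) and the dimmer probe set of CCT4 (−0.39, mean 7.22, below the background level). By their brighter probe sets the TRiC genes had −0.10 to 0.04 in L13.

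In H10 the smallest p belonged to DNAJB8 (−0.22), HSPA14 (0.23), DNAJB11 (0.21) and CCT2 (−0.17), with an adjusted p of 1 each. In H13 they were DNAJC15 (−0.26), DNAJC5B (0.26), DNAJC6 (−0.29) and DNAJC14 (0.17), also with an adjusted p of 1, and DNAJC6 had 0.0591 with run as a covariate. H10 against H13 had DNAJC5B (−0.35), DNAJB8 (−0.28), DNAJC14 (−0.26) and HSPA13 (0.24) first. L10 against L13 had DNAJC24, whose human relative acts in diphthamide synthesis (−0.37, −0.60 to −0.15), DNAJB12 (−0.31), HSPH1 (−0.46) and HSPA13 (−0.32), with an adjusted p of 0.592 each. Leukocyte markers (4 of 5 measured, 1 above the background level) averaged 8.41 in the controls and 8.70 in L13, and their part in these values was not tested. The pathway lists above had 0 genes called in any of the contrasts of treated embryos or chickens against their controls.

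**Figure D4:**
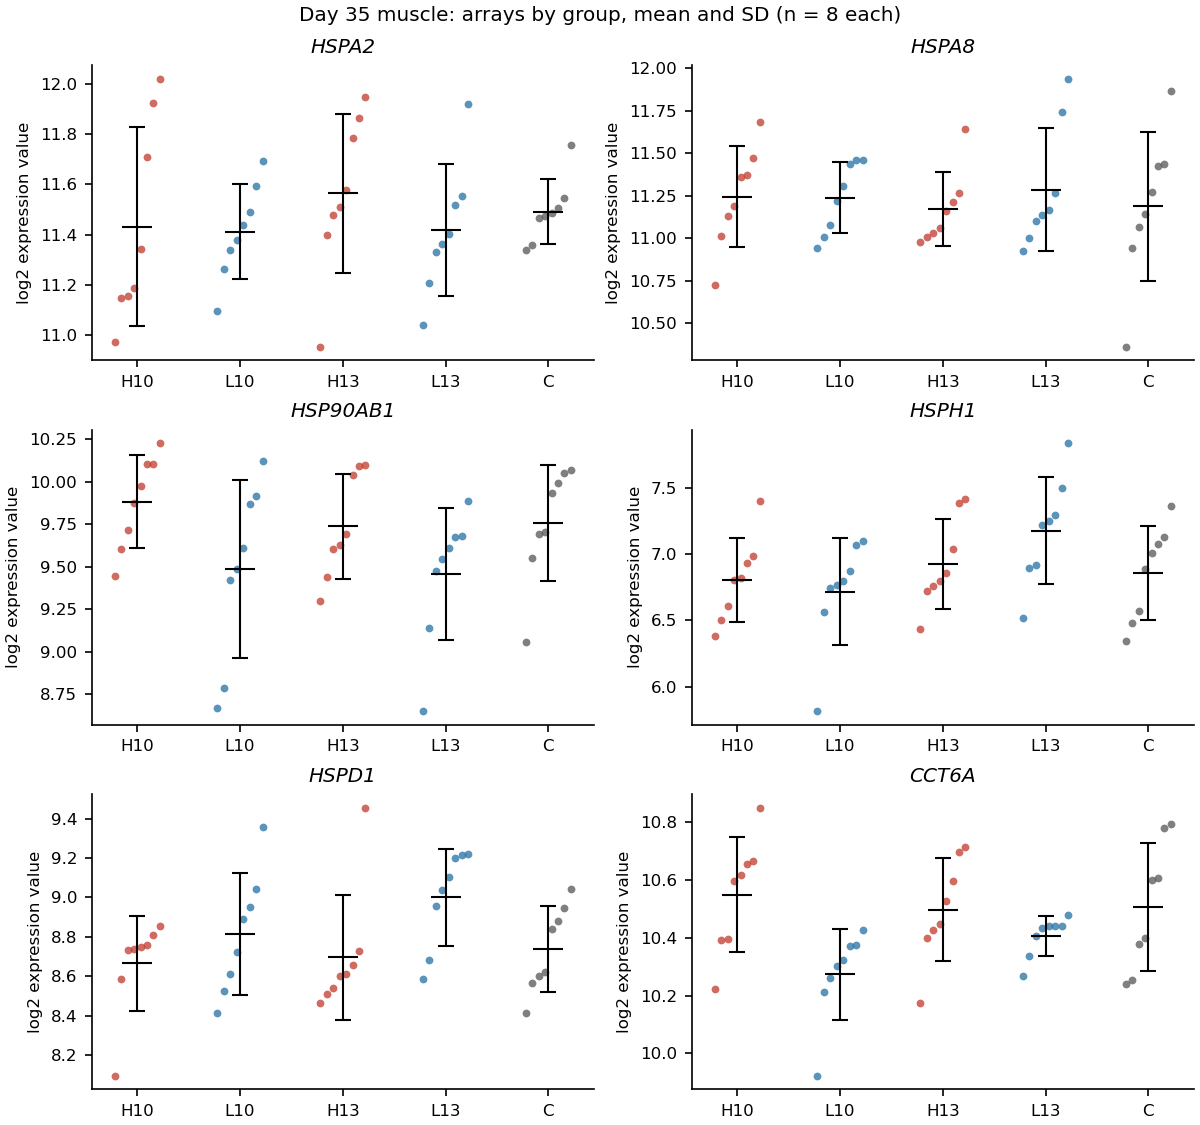
Log2 expression values of 6 chaperone genes (y axes) in each chicken at D35, by group (x axes), with 8 arrays per group sorted by value and bars for the mean ± SD. The groups overlap for each gene, as for HSP90AB1, whose means run from 9.46 in L13 to 9.88 in H10.

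Part of the spread within groups went with the sex chromosomes. Birds carry ZW (female) or ZZ (male) sex chromosomes and compensate dosage of Z genes only in part. The labels do not give the sex, so the mean of 18 W-linked probe sets was taken as a W score for each array and scaled from 0 to 1. The scores fell apart into 25 embryo arrays at 4.03 to 5.22 and 23 at 8.69 to 9.32, and at D35 into 21 at 3.57 to 4.36 and 19 at 7.43 to 8.37. By the GRCg7b gene table, DNAJA1, DNAJB5, DNAJC21 and DNAJC25 lie on chromosome Z.

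In embryos, 3 members fell with the W score and 0 rose, where 2.61% of all probe sets fell and 0.454% rose, and all 3 are Z-linked. From the lowest to the highest score, DNAJC25 fell by 0.56 ± 0.06 (SE, adjusted p = 2.74e-09), DNAJA1 by 0.40 ± 0.06 (adjusted p = 3.51e-07) and DNAJC21 by 0.42 ± 0.09 (adjusted p = 0.00237). DNAJB5 had −0.24 (95% interval −0.41 to −0.06, adjusted p = 0.244). At D35, DNAJC25 fell by 0.69 ± 0.10 (adjusted p = 5.65e-06) and DNAJC21 by 0.54 ± 0.11 (adjusted p = 0.00175), with 0 members rising, where 2.31% of all probe sets fell and 0.637% rose. DNAJB5 had −0.34 (−0.55 to −0.13, adjusted p = 0.0734), which passed the threshold after quantile normalization (adjusted p = 0.0401), after centring (0.0358), without dim probe sets (0.0340) and without single arrays (H10 array 11 or 15, H13 array 34 or L10 array 64, down to 0.0266). DNAJA1 had −0.31 (adjusted p = 0.389). These 4 genes thus lay lower at high scores on both stages, and DNAJC21 and DNAJC25 passed the threshold on both. DNAJC21, a ribosome assembly factor, and DNAJC25 lay below the background level at both stages.

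**Figure D5:**
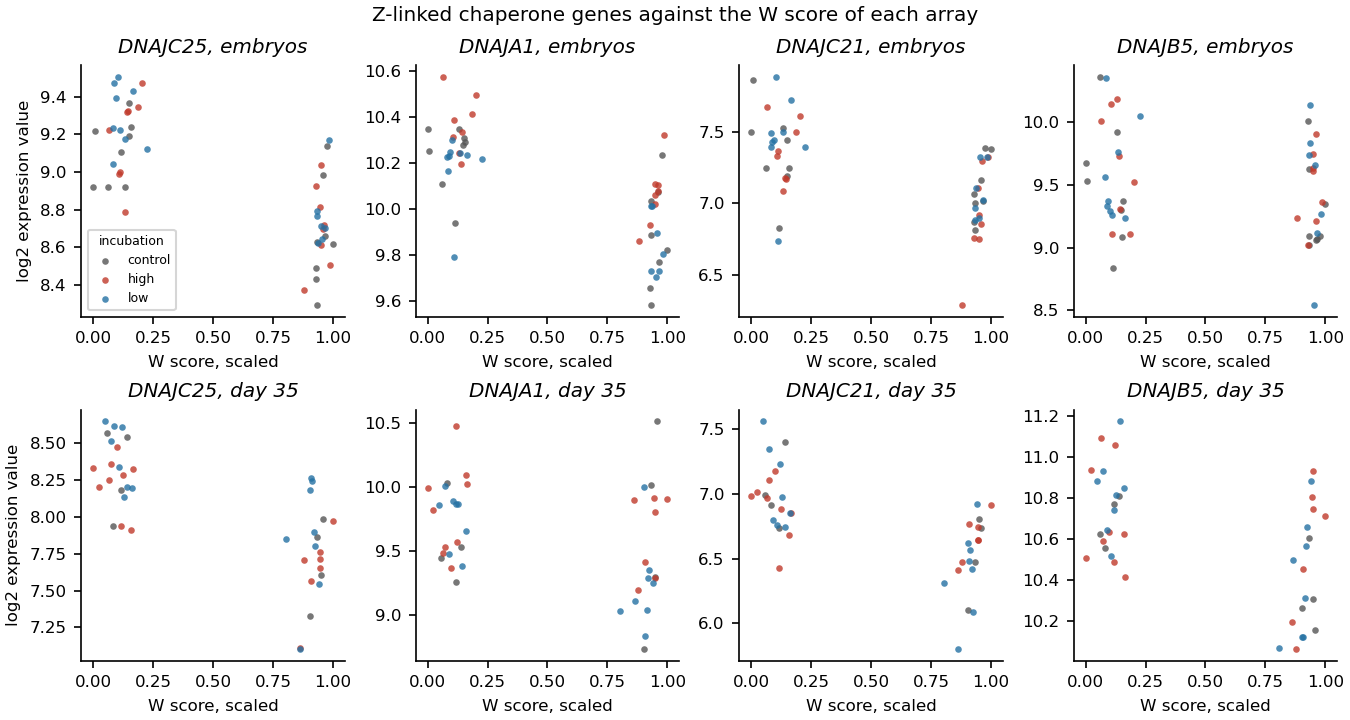
Log2 expression values of the 4 Z-linked chaperone genes (y axes) against the scaled W score (x axes) of each embryo (upper row) and each chicken at D35 (lower row), coloured by incubation. The arrays form a low-score and a high-score set, and DNAJC25 lies lower in the high-score set, with a slope of −0.56 in embryos and −0.69 at D35.

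The whole spread within groups, W-linked part included, differed by gene. In embryos the lowest SD within groups was that of HSPA8, DNAJA3, HSPA5 and CCT4 (0.07 to 0.10), and at D35 that of DNAJA3, DNAJC7, DNAJC30 and DNAJB6 (0.13 to 0.16). The highest in embryos belonged to dim probe sets of DNAJB14 (0.82) and CCT4 (0.34), to DNAJC12 (0.44) and to HSPA2 (0.34). At D35 they belonged to DNAJB14 (1.13), DNAJC12 (0.46), DNAJA1 (0.42) and DNAJC25 (0.40).

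Some pairs of chaperones varied together from animal to animal within the groups. Of 10 pairs, listed with earlier results of these data known, 7 had both genes measured. The correlations of their deviations from the group means were tested by permutation within groups, with p-values adjusted over the 7 pairs of a stage. The means of HSPH1 and DNAJB11 lay below the background level at both stages. At D35 those of CCT4, CCT5, CCT8 and HSPD1 did so as well. HSPA8 and HSPH1 had r = 0.62 and rho = 0.60 over the 48 embryos (permutation, adjusted p = 3.5e-05 and 7.0e-05) and r = 0.57 and rho = 0.68 over the 40 chickens at D35 (permutation, adjusted p = 0.000473 and 0.000105). Within the runs r was 0.47 and 0.76 in embryos and 0.48 and 0.69 at D35, and without the 2 arrays farthest from the median of HSPA8 it was 0.54 and 0.58. In run 1 at D35 the adjusted permutation p of r was 0.0532.

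CCT2 and CCT5 had r = 0.74 and rho = 0.72 in embryos (permutation, adjusted p = 3.5e-05 and 7.0e-05) and r = 0.71 and rho = 0.70 at D35 (permutation, adjusted p = 0.00014 and 7.0e-05). Within the runs r lay between 0.67 and 0.78, and without the 2 arrays farthest from the median of CCT2 it was 0.65 and 0.71. CCT4 and CCT8 had r = 0.60 and rho = 0.52 at D35 (permutation, adjusted p = 0.000163 and 0.0021) and r = 0.21 and rho = 0.15 in embryos (permutation, adjusted p = 0.205 and 0.31). At D35 their r was 0.66 and 0.53 and rho 0.65 and 0.30 within the runs, with rho in run 2 short of the threshold (permutation, adjusted p = 0.358), and r was 0.53 without the 2 arrays farthest from the median of CCT4. With the dimmer probe set of CCT4 the relation turned negative (r = −0.41, permutation p = 0.00311).

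HSPA9 and HSPD1, both of the mitochondrial matrix, had r = 0.64 and rho = 0.58 at D35 (permutation, adjusted p = 0.000163 and 0.00042), with r = 0.53 and 0.84 within the runs and 0.56 without the 2 arrays farthest from the median of HSPA9. In run 1 rho was 0.37 (permutation, adjusted p = 0.132), short of the threshold. In embryos they had r = 0.45 and rho = 0.37 (permutation, adjusted p = 0.0253 and 0.0248), but 0.07 and 0.63 within the runs and 0.27 without 2 arrays, so that this relation rested on those samples. HSPA5 and DNAJB11 had r = 0.38 and rho = 0.45 in embryos (permutation, adjusted p = 0.0253 and 0.00686), with 0.57 and 0.60 within the runs and 0.36 without 2 arrays, and r = 0.21 and rho = 0.23 at D35 (permutation, adjusted p = 0.242 and 0.181).

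HSPA5 and HSP90B1, both abundant chaperones of the endoplasmic reticulum, had r = 0.22 and rho = 0.35 in embryos (permutation, adjusted p = 0.205 and 0.0248) and r = 0.06 and rho = 0.10 at D35 (permutation, adjusted p = 0.71 and 0.536). Within the runs their r was 0.33 and 0.22 in embryos and 0.09 and −0.01 at D35. HSPA5 and HSPD1, a pair across compartments, had r = 0.13 and rho = 0.38 in embryos (permutation, adjusted p = 0.516 and 0.0222) and r = 0.31 and rho = 0.24 at D35 (permutation, adjusted p = 0.0981 and 0.18). Their r in runs 1 and 2 was 0.46 and −0.05 in embryos and 0.58 and −0.20 at D35. These deviations also hold what the arrays share in quality and tissue makeup, whose part in the correlations was not tested. Pairs of unrelated probe sets were not measured for comparison, so a tie between joint variation and shared function was not tested.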

How the data were processed

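The log2 expression values of 88 arrays (48 embryos, 40 chickens at D35) were deposited in a form already normalized by the authors, whose processing notes name GCOS 1.1.1. How probes were summarized, which normalization was used and which genome build applied is not given in the sources used here. A second deposited table of log2 values differed from the first by 0. With 98 control probe sets left out, the other 20706 were fitted without a filter on level, and embryos and D35 were fitted apart.

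In limma 3.58.1 (R 4.3.3) a mean per group was fitted, eBayes moderated the variances, and calls were made at a Benjamini-Hochberg adjusted p under 0.05, taken over all probe sets of a comparison. Intervals are unadjusted 95% intervals. The number of arrays limits the precision. Of the probe sets, 12300 had 1 symbol, 256 several and 8150 none, and all 58 members were found in the GRCg7b gene table by Entrez ID. A gene with several probe sets is stood for by the one with the highest mean. Named were up to 10 called members in each direction per comparison, the 4 smallest p where fewer than 4 were called, a set of main chaperones and the CCT subunits, Z-linked members, and those with the 4 highest and 4 lowest SD. Controls for background (23 probe sets) set the background level at their 95th percentile.

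The members, roles, pairs and lists were chosen with earlier results of these data known, and the direct contrasts of H and L groups, the values within the runs of the controls and the differences from own-run controls after the data were seen. Correlations used 100000 permutations within groups (Python 3.11.15, numpy 2.4.6, pandas 2.3.3), with matplotlib 3.10.9 for figures. The alternatives were array weights, quantile normalization, median centring, eBayes with a trend and robust variances, no probe sets below the background level, the W score, the skin and feather mean or the run as covariates, controls of the same run, C13 chickens alone as controls at D35, the groups of a contrast alone, other probe sets and leaving out each array. The limma fit was run on simulated data with planted changes, for H10 against C10 in embryos and H10 against the controls at D35. The simulated noise was normal and independent for each probe set, without run, sex or tissue structure. Its outcome is not reported here and no result rests on it. The W score slope and the correlations were not tested in this way. The slaughter weight that the study used as a covariate at D35 is not in the labels and was not used here. Labels give separate animals, and animal numbers pair no samples.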

Additional observations from a re-analysis of the deposited data

Results flagged for a closer look

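In each group of 8 arrays, the highest and the lowest value of 20 genes were set against the rest, and a value was picked out when its gap to the nearest array was too large a part of the range of the group by Dixon's criterion. Of 220 groups of values 18 were picked out (8.18%). For independent normal values about 5% of groups are picked out. The 20 genes were measured on the same arrays and are not independent, so these percentages cannot show an excess.

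In embryos, array 70 of C10 was highest for CCT4 (11.57) and CCT6A (12.47). Array 13 of H10 was lowest for HSP90B1 (12.04) and HSPA4L (10.24), and array 16 of H10 for CCT8 (9.90). Array 59 of L10 was lowest for HSPA2 (9.08) and DNAJB9 (9.15), and array 61 of L10 for DNAJB5 (8.54). Array 39 of C13 was lowest for DNAJC3 (9.85) and HSPD1 (10.69), array 65 of C10 for HSPD1 (10.32), and array 79 of L13 for DNAJB9 (9.21).

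At D35, array 34 of H13 was highest for HSPD1 (9.46) and array 50 of H13 for HSPA8 (11.64). Array 13 of H10 was lowest for HSPD1 (8.10) and an L13 array for CCT4 (8.61). Separate L10 arrays were lowest for CCT6A (9.92) and HSPH1 (5.82).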

How the results depend on the processing

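The counts of 0 chaperones in the treatment contrasts of embryos and of D35 chickens stayed at 0 under every alternative run, and so did the tests of the differences between contrasts. In C13 against C10 the 4 higher calls became 2 without dim probe sets and 2 with run 1 controls alone, and the 13 lower calls became 5 with run 2 controls alone. In H13 against H10 the 5 higher became 3 without dim probe sets, and the 10 lower became 17 after quantile normalization and 16 after centring. In L13 against L10 the 4 higher became 2 and the 8 lower 5 without dim probe sets, and the 8 lower became 14 after quantile normalization and 17 with array weights. In these cases the cause was not tested, beyond the fewer genes or arrays that some alternatives hold. The shares of all probe sets under the alternatives are not given here. In H13 against H10 all probe sets shifted by a median of −0.047 after quantile normalization and −0.032 after centring. In L13 against L10 the median shift after quantile normalization was 0.009.

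The 5 calls of H10 against L10 became 3 after quantile normalization, 3 after centring, 14 with array weights, 2 with run as a covariate, 0 with own-run controls and 0 with these groups alone. Quantile normalization and centring shifted all probe sets there by a median of 0.054 and 0.068. The 5 calls ranged from 2 to 12 when 1 array was left out, with 2 or 3 without H10 arrays 4, 13 or 16 or L10 arrays 54, 55, 56 or 57, and 12 without L10 array 59. The 8 calls of H13 against L13 became 13 with array weights and 0 with run as a covariate or own-run controls. Without dim probe sets, the genes falling with the W score numbered 1 instead of 3 in embryos (DNAJA1 stayed) and 1 instead of 2 at D35, where DNAJC21 and DNAJC25 dropped out as dim and DNAJB5 was gained. At D35 they numbered 3 after quantile normalization and after centring.

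With probe set 15494260 CCT4 had 0.0564 in C13 against C10, −0.0559 for the difference between L and C embryos and 0.15 in H13 against L13, and its r with CCT8 was −0.26 in embryos and −0.41 at D35. DNAJC6 in H13 chickens at D35 had 0.0591 with run as a covariate and 0.0591 with same-run controls. Correlations by run changed sign for HSPA5 and HSPD1 (−0.0514 in embryo run 2, −0.20 at D35 in run 2), HSPA5 and HSP90B1 (−0.011 at D35 in run 2) and HSPA5 and DNAJB11 (−0.00901 at D35 in run 2). HSPA9 and HSPD1 in embryos had 0.0692 and 0.63 in the runs and 0.27 without 2 arrays, and HSPA8 and HSPH1 0.48 in run 1 at D35, none past the threshold. HSPA5 had 0.38 with HSP90B1 and 0.45 with HSPD1 in embryos without 2 arrays, and 0.58 with HSPD1 in run 1 at D35, past it. No paired analysis was possible because the animal numbers name different animals and the groups compared share fewer than 2 of them.

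In all, 31 member probe sets in embryos and 39 at D35 had means below the background level, which limits what their small differences can show. The level is a high percentile of 23 control probe sets, whose median was 5.61 in embryos and 5.33 at D35. A mean below the level is therefore not in itself a mean at the typical control. Sex and slaughter weight entered no main fit.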
